A study of Drosophila melanogaster with 8 samples.

Results

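The comparison asked, gene by gene, whether the treated-over-control log2 ratio in Drosophila melanogaster heads differed between 4 drug-free days after treatment and the end of treatment. Its members were the 2166 named genes, of 6793 on the array, that had values on at least 3 of 4 arrays on each day, and 3021 further features without a single gene symbol entered the same fit. Each value is the day 14 mean minus the day 10 mean, in log2 units, so 1 unit is a doubling of the ratio.

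All flies were unmated Oregon-R males, a wild-type laboratory stock, 3 to 4 days old at the start, and each RNA sample came from pooled heads. In both treated groups the flies ate PTZ (pentylenetetrazole) at 8 mg/ml for 7 days and then GBP (gabapentin) at 16 mg/ml for 3 days. The day 10 flies were taken at that point, and the day 14 flies after 4 more days on normal food. Each array set 1 treated pool against its own parallel pool on normal food, so the days share no control sample, and there were 4 arrays per day. Treated RNA carried Cy5 in replicates 1 and 2 of each day and Cy3 in replicates 3 and 4. For day 14 replicates 1 to 3 the labels' line on feeding order names ETH, which they do not explain, in place of GBP. The titles of those arrays give GBP, and what the flies received in those 3 days is uncertain to that extent. A day difference can hold the withdrawal of the drug, 4 more days of age and separately reared vials, which cannot be told apart here.

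The dye in the numerator was not given in the sources used here. The direction is therefore not settled. The ratios were read as Cy5 over Cy3, the usual order in this scanner's software, and the sign was turned on the swapped arrays. If those arrays had been turned before deposit, the reading without the sign change applies, and the value in that reading is given for each of the 12 genes per direction with the smallest p, for the lists with the lowest medians, and for other genes named below where it is stated.

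PTZ is a convulsant that blocks the chloride channel of ionotropic GABA receptors, the main inhibitory receptors of the fly brain. Gabapentin is an anticonvulsant that in mammals binds the alpha2delta subunit of voltage-gated calcium channels. A fly head holds the brain, the compound eyes with their photoreceptors, fat body, muscle and cuticle, and cytochrome P450 enzymes in fat body and other tissues oxidise foreign compounds.

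The arrays differed in depth and spread. Deposited values numbered 12929 to 19719 per array on day 10 and 6628 to 14095 on day 14, and 2905 genes with enough values on day 10 fell short on day 14, against 420 the other way. Array medians as deposited ran from -0.83 to 0.08 on day 10 and from -0.48 to 0.29 on day 14, and each array was centred on its own. The median SD between arrays was 0.326 for a gene on day 10 and 0.215 on day 14, and it was larger on day 10 in 1504 of 2166 genes. The table holds ratios and no levels, so the labelled tissue could not be set against marker levels.

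No gene and no feature passed the test of the day difference. In the limma fit to all 8 arrays the lowest Benjamini-Hochberg adjusted p over 5187 genes and features was 0.9996, and 0 of 5187 (0%) had an adjusted p under 0.05. At an unadjusted p under 0.05 there were 129 (2.49%), a smaller share than the threshold itself. Among named genes 52 (2.4%) reached it, of which 28 (1.29%) were higher on day 14 and 24 (1.11%) were lower. After centring by position, which subtracts the median of each consecutive run of features in the table, the split was 54 higher and 28 lower. With arrays scaled to equal spread it was 28 and 45, and without centring it was 44 and 1. Without day 10 replicate 4 there were 239 such genes, 159 of them lower, and without day 14 replicate 3 or 4 there were 30 or 29. These 52 are described below by their values, as the genes at the edges of the distribution and not as calls. Most differences were small: the quartiles of the 2166 differences were -0.15 and 0.15, their median was 0.00, and the median standard error was 0.232. Centring by position narrowed the differences in general. Across the 2166 genes their SD fell from 0.431 to 0.302 on the Cy5 arrays and from 0.344 to 0.276 on the Cy3 arrays. A value nearer 0 by position is therefore not by itself particular to a gene or list.

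The smallest p that an exact two-sided permutation test can give with 4 against 4 arrays is 0.0286. It was reached by 16 of the 898 genes with all 8 values (1.78%). Over all 2166 genes, most of them with 3 values on at least 1 day, the measured values of the days did not overlap in 68 (3.14%), 45 of them higher on day 14 (2.08%) and 23 lower (1.06%). Without a day difference, non-overlap in either direction has a probability of 0.0286 with 4 against 4 values. It is more likely with 3 values on a day. Neither the 1.78% nor the 3.14% is therefore an excess, and non-overlap in 1 gene is weak evidence.

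Most genes at the edges lay further from 0 on day 10 than on day 14. Among the 28 higher genes, 20 had an unadjusted limma p under 0.05 for day 10 alone and 4 for day 14 alone, and the day 10 mean was further from 0 in 22. Among the 24 lower genes these counts were 10, 8 and 16, and in all 24 the means of the days had opposite signs, as they had in 22 of the 28. Since the genes were picked by their difference, these counts describe the pick and test nothing. For comparison, 75 of all members (3.46%) lay below their control on day 10 and 59 (2.72%) above it at that threshold. On day 14 these were 54 (2.49%) and 28 (1.29%). The shares of all members with the day 10 mean further from 0, or with means of opposite signs, are not given. The median SD between arrays for a gene was also larger on day 10, at 0.326 against 0.215 on day 14. Whether this spread accounts for the counts at the edges was not tested.

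**Figure D1:**
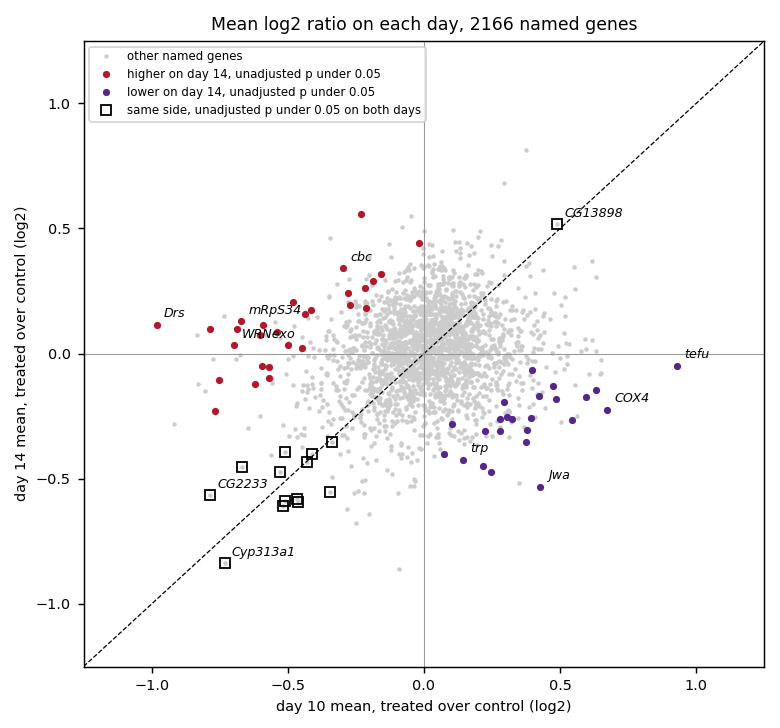
Mean treated-over-control log2 ratio on day 10 (horizontal) and day 14 (vertical) for the 2166 named genes, with the 28 higher and 24 lower genes in colour and open squares for 14 genes that lay on the same side of 0 on both days. The dashed line marks equal means; Drs lies farthest above it and tefu farthest below.

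Both dye orientations were then compared, since a dye effect that is the same on both days cancels in a day difference within 1 orientation. Across the 2166 genes the differences from the Cy5 arrays and from the Cy3 arrays had a Pearson correlation of -0.20 (Spearman -0.19), and 943 genes (43.5%) had the same sign in both. Genes are not independent replicates, and each difference rests on at most 2 arrays per day, so this is a description. Without the sign change the same correlation is 0.20. Its sign rested on day 10 replicate 4: without that array the correlation was 0.05, and over the other 7 arrays left out in turn it ran from -0.28 to -0.08. Between single arrays the Spearman correlation was 0.01 to 0.51 within a day and dye and -0.45 to 0.36 within a day across dyes. It was -0.08 to 0.37 for arrays of the same dye on different days and -0.20 to 0.17 for arrays of different dye and day. The medians, in the same order, were 0.30, -0.10, 0.21 and -0.05. With the sign turned, arrays of the same dye thus had higher medians than arrays of different dye, within a day and between days.

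**Figure D2:**
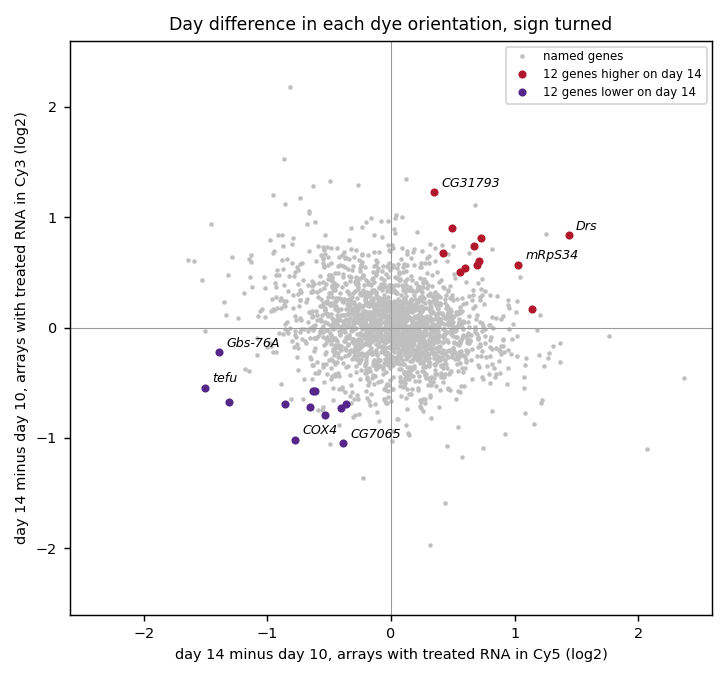
Day 14 minus day 10 difference (log2) of each named gene on the arrays with treated RNA in Cy5 (horizontal) and in Cy3 (vertical), sign turned. The cloud leans slightly down to the right (Pearson correlation -0.20), and the 12 higher and 12 lower genes with the smallest p lie in the corners where both orientations share a sign.

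Of the 52 genes, 27 of the 28 higher and 24 of the 24 lower had the same sign in both orientations. The genes were picked by a difference averaged over both orientations, so this agreement follows from the pick and supports nothing. After centring by position all 52 kept their sign, with an unadjusted p under 0.05 in 15 of the 28 and 5 of the 24. Without the sign change 14 of the 28 and 13 of the 24 kept their sign, and 1 of each group had an unadjusted p under 0.05. In that reading other genes reached the threshold, 201 in all (9.28%), with 70 higher (3.23%) and 131 lower (6.05%), and again none had an adjusted p under 0.05.

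Drs, which encodes the antifungal peptide drosomycin and is a standard target of the Toll immune pathway, had the largest difference of any member and the only one over 1 log2 unit. Its day 10 values were -1.20, -0.61 and -1.14 in replicates 1, 2 and 4, with no value in replicate 3. On day 14 they were 1.14, -0.07, -0.38 and -0.23 in replicates 1 to 4. All 3 day 10 arrays lay below all 4 day 14 arrays, while day 14 replicate 1 stood alone above 0. The difference was 1.10 ± 0.35 (SE from limma, 3 and 4 arrays; adjusted p = 0.9996), and 0.64 without the sign change. Leaving out day 14 replicate 1 lowered it to 0.75. Of the other 10 measured genes of the immune list, none had an unadjusted p under 0.05; the adaptor Myd88 of the same pathway was at -0.12 ± 0.25, the lowest of the list.

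mRpS34, a protein of the small subunit of the mitochondrial ribosome, was at -0.68, -0.50, -0.49 and -1.02 on day 10 and at 0.84, 0.04, -0.39 and 0.03 on day 14. The days did not overlap, with -0.49 and -0.39 as the nearest pair. The difference was 0.80 ± 0.26 (SE, 4 arrays each; exact permutation p = 0.0286), 0.47 after centring by position and 0.23 without the sign change. In its list 10 of 20 members lay above 0 and 10 below, with a median of 0.00, and mRpL54, the lowest, was at -0.81 ± 0.52. In the reading without the sign change mRpL54 was at -1.11 and had an unadjusted p under 0.05.

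Among higher genes with roles in DNA and RNA, WRNexo, the fly counterpart of the exonuclease part of the Werner syndrome protein, was at -0.99, -0.49, -0.82 and -0.49 on day 10. On day 14 replicates 2 to 4 gave -0.06, 0.04 and 0.13, all above the day 10 arrays. Its difference of 0.73 ± 0.20 had the smallest unadjusted p of the higher genes, and it was -0.04 without the sign change. cbc, an RNA kinase related to human CLP1, was at -0.54, -0.14, -0.39 and -0.13 on day 10 and at 0.43, 0.28 and 0.31 in day 14 replicates 1, 2 and 4. Every day 10 array lay below 0 and every day 14 array above it, with a difference of 0.64 ± 0.20 that stayed positive at 0.17 without the sign change. p53, the tumour suppressor and regulator of the DNA damage response, was at -0.69, -0.59, -0.64 and -0.24 and then at -0.21, 0.12 and 0.35 in replicates 2 to 4. Its days did not overlap, with -0.24 and -0.21 as the nearest pair, and the difference of 0.62 ± 0.22 turned to -0.13 without the sign change.

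The largest difference in the other direction also belonged to the DNA damage list. tefu, the fly ATM kinase that senses broken DNA and protects telomeres, was at 1.74, 0.79, 0.67 and 0.52 on day 10 and at -0.24, 0.08 and 0.02 in day 14 replicates 2 to 4. All day 10 arrays lay above all day 14 arrays, replicate 1 of day 10 by the widest margin. The difference was -0.98 ± 0.29 (SE, 4 and 3 arrays), -0.72 after centring by position and -0.45 without the sign change. None of the 4 features of tefu gave a day difference of its own, so its array values may average different features. The 9 measured genes of the list had a median of -0.03, with 4 above 0 and 5 below, so p53 and tefu were its opposite ends and not examples of a common shift.

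Synj, synaptojanin, the lipid phosphatase that strips clathrin coats from recycled synaptic vesicles, was at -0.46, -0.94 and -0.65 in day 10 replicates 1, 2 and 4. In day 14 replicates 2 to 4 it was at -0.21, 0.29 and 0.22. The days did not overlap and the difference was 0.78 ± 0.24 (SE, 3 arrays each), but without the sign change it was 0.01. Sec22, a SNARE of transport between endoplasmic reticulum and Golgi, ran the other way, from 0.08, 0.11, 0.06 and 1.31 to -0.44, -0.48, -0.11 and -0.01. Every day 10 array was above 0 and every day 14 array below it, and day 10 replicate 4 stood far above the other 3. The difference was -0.65 ± 0.28, and -0.34 without that array. After centring by position Sec22 was at -0.41, and without the sign change it turned to 0.09. These were the only members of 35 in the vesicle and endosome list with an unadjusted p under 0.05, and the list median was 0.00.

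**Figure D3:**
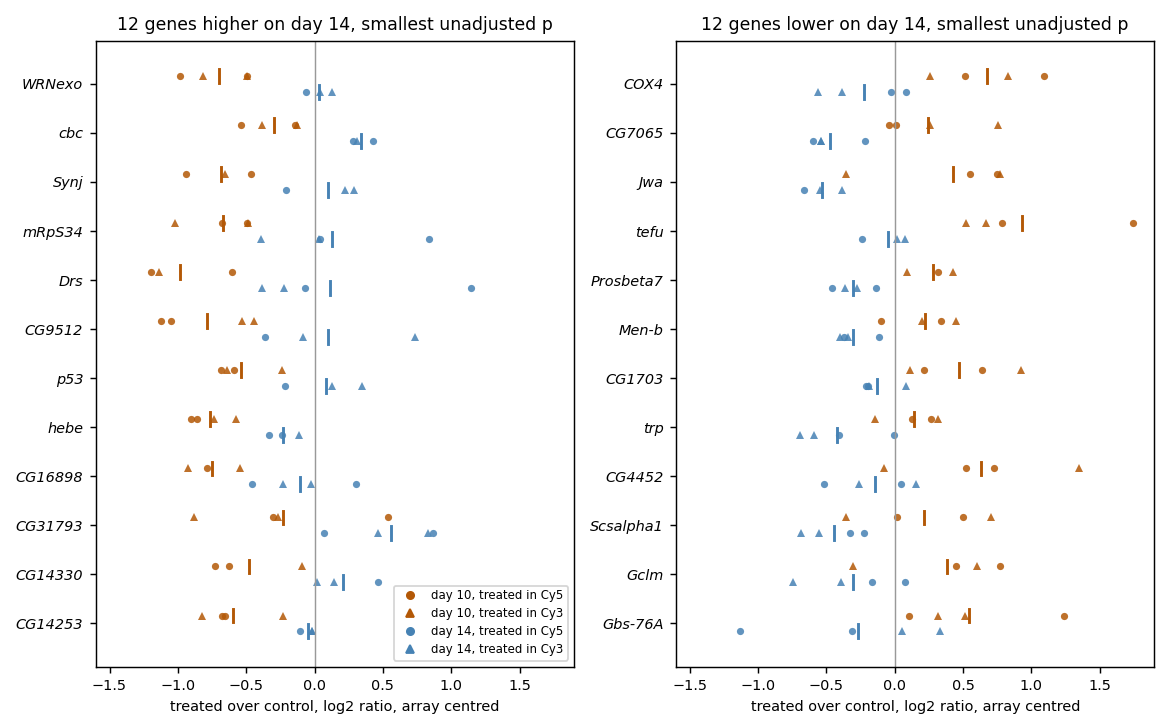
Treated-over-control log2 ratio of each array, centred on its median, for the 12 genes higher (left) and 12 genes lower (right) on day 14 with the smallest unadjusted p. Circles are arrays with treated RNA in Cy5, triangles those in Cy3, and short bars are the means; the day 10 means lie below 0 for all 12 higher genes and above 0 for all 12 lower genes.

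The other higher genes were CG9512, CG31793, hebe, CG16898, CG14330 and CG14253. CG9512, a member of the glucose-methanol-choline oxidoreductase family, went from -1.12, -1.05, -0.44 and -0.53 to -0.36, -0.08 and 0.74 in replicates 2 to 4. The days did not overlap, and the difference of 0.88 ± 0.29 dropped to 0.56 without day 14 replicate 4. CG9512 was at -0.04 without the sign change. CG31793, an ABC transporter, was at -0.30, 0.54, -0.27 and -0.88 on day 10 and at 0.87, 0.07, 0.46 and 0.83 on day 14. Day 10 replicate 2 lay within the day 14 range, so the days overlapped, and the difference of 0.79 ± 0.29 became -0.44 without the sign change. hebe, at -0.86, -0.90, -0.74 and -0.57 and then -0.33, -0.24 and -0.11 in replicates 1 to 3, was below its control on every array. It was less so on day 14, with a difference of 0.54 ± 0.19. CG16898 (0.65 ± 0.23), CG14330 (0.69 ± 0.25) and CG14253 (0.55 ± 0.20) also had days that did not overlap. Of these, hebe and CG16898 turned negative without the sign change, at -0.04 and -0.20, while CG14330 and CG14253 were at 0.52 and 0.05.

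Among the lower genes, COX4, a subunit of cytochrome c oxidase, the last complex of the respiratory chain, had the smallest p of all named genes. COX4 was at 1.09, 0.52, 0.83 and 0.26 on day 10 and at -0.03, 0.08, -0.39 and -0.56 on day 14. All day 10 arrays were above their controls and above every day 14 array. The difference was -0.90 ± 0.23 (SE, 4 arrays each; exact permutation p = 0.0286), -0.43 after centring by position and 0.12 without the sign change. It was the only one of 24 measured genes of oxidative phosphorylation with an unadjusted p under 0.05; 17 of the 24 lay below 0, but their median was -0.03. COX6AL, another cytochrome oxidase subunit, was at 0.44 ± 0.33, and at 0.64 without the sign change, where its unadjusted p was under 0.05.

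Scsalpha1, the alpha subunit of succinyl-CoA synthetase in the TCA cycle, was at 0.50, 0.01, 0.71 and -0.36 on day 10 and at -0.33, -0.22, -0.56 and -0.68 on day 14. Day 10 replicate 4 lay inside the day 14 range, and the difference was -0.66 ± 0.24 (SE, 4 arrays each; exact permutation p = 0.0857). Its partner ScsbetaA did not differ detectably between the days, at 0.12 ± 0.23, and lay below its control on all 7 measured arrays, from -0.85 to -0.05. Men-b, a malic enzyme that makes pyruvate and NADPH from malate, was at 0.34, -0.10, 0.45 and 0.20 and then at -0.37, -0.11, -0.34 and -0.40. Its days did not overlap, with -0.10 and -0.11 as the nearest pair, and the difference was -0.53 ± 0.18. Gbs-76A, a subunit that targets protein phosphatase 1 to glycogen, differed by -0.81 ± 0.33, with day 10 replicate 1 at 1.24 and day 14 replicate 1 at -1.13 at its ends, and it was -0.52 without the latter. Without the sign change Scsalpha1, Men-b and Gbs-76A were at 0.13, 0.17 and -0.58, and after centring by position at -0.18, -0.19 and -0.41. The 4 measured genes of the TCA list had a median of -0.37, which was -0.22 after centring by position and 0.12 without the sign change.

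Of the antioxidant list, 2 of 5 measured genes had an unadjusted p under 0.05, both lower on day 14, where 1.11% of all members were. Gclm, the modifier subunit of the enzyme that starts glutathione synthesis, was at 0.77, 0.45, 0.60 and -0.31 on day 10 and at -0.17, 0.08, -0.74 and -0.39 on day 14. Only day 10 replicate 4 fell among the day 14 values, and the difference was -0.69 ± 0.26. Prx3, a mitochondrial peroxiredoxin that removes hydrogen peroxide, was named after its value was seen and differed by -0.49 ± 0.21. The list median of -0.32 became 0.01 after centring by position and 0.03 without the sign change, where Gclm was at 0.03 and Prx3 at 0.07. By position Gclm was at -0.28 and Prx3 at -0.12.

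In the proteasome and ubiquitin list both members with an unadjusted p under 0.05 encode subunits of the proteolytic core. Prosbeta7 was at 0.32, 0.09 and 0.43 in day 10 replicates 1, 3 and 4 and at -0.46, -0.14, -0.36 and -0.28 on day 14. All measured day 10 arrays lay above 0 and all day 14 arrays below, with a difference of -0.59 ± 0.19 (SE, 3 and 4 arrays). Prosbeta5, named after its value was seen, was at 0.58, 0.25, 0.55 and -0.15 on day 10 and at -0.06, -0.14 and -0.57 in day 14 replicates 1, 3 and 4. Day 10 replicate 4 overlapped the day 14 values, and the difference was -0.56 ± 0.24. The 18 measured genes had a median of -0.02, and Rpn12, a subunit of the regulatory cap, was the highest at 0.32 ± 0.21. The days of Rpn12 did not overlap (exact permutation p = 0.0286). Without the sign change Prosbeta7 was at 0.08 and Prosbeta5 at 0.11, and by position they were at -0.46 and -0.25.

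The remaining lower genes were CG7065, Jwa, CG1703 and CG4452. CG7065 went from -0.04, 0.01, 0.76 and 0.26 to -0.59, -0.21, -0.54 and -0.54, with no overlap and a difference of -0.72 ± 0.21. Jwa, the fly counterpart of human ARL6IP5, went from 0.74, 0.55, 0.77 and -0.36 to -0.66, -0.55 and -0.38 in replicates 1, 3 and 4. The lone negative day 10 array, replicate 4, still lay above the day 14 arrays, and the difference was -0.96 ± 0.28. CG1703, an ATPase of the ABCF family, went from 0.64, 0.22, 0.92 and 0.11 to -0.20, -0.21, -0.19 and 0.08, a difference of -0.60 ± 0.21 with 0.11 and 0.08 as the nearest pair. CG4452 differed by -0.78 ± 0.28 and its days overlapped. CG7065 turned to 0.33 without the sign change, and Jwa, CG1703 and CG4452 were at -0.13, -0.03 and -0.09. After centring by position CG7065 stayed at -0.74, but Jwa was at -0.49, CG1703 at -0.19 and CG4452 at -0.24. CG13933, which was fixed by name because earlier results of these data named it, was at -0.66 ± 0.31, short of an unadjusted p under 0.05, and at 0.30 without the sign change.

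Photoreceptor markers had the lowest median of the 31 lists with at least 3 tested members. Of 7 measured photoreceptor markers 6 were below 0, with a median of -0.41, against a median of 0.00 for all members, and of 15 phototransduction genes, which include those 7, 12 were below 0 with a median of -0.31. Only trp, the calcium channel that opens when photoreceptors see light, had an unadjusted p under 0.05. It was at 0.13, 0.27, -0.14 and 0.32 on day 10 and at 0.00, -0.41, -0.59 and -0.69 on day 14, so the days overlapped by 1 array each, and its difference was -0.57 ± 0.20 (SE, 4 arrays each; exact permutation p = 0.0571). The sign of trp turned without the sign change, to 0.16. The array medians of the 7 markers were 0.28, 0.26, -0.17 and 0.24 on day 10 and 0.06, 0.13, -0.30 and -0.51 on day 14. Day 10 replicate 3 thus lay below day 14 replicates 1 and 2.

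The other 5 markers below 0 were named after their values were seen. inaC, the eye protein kinase C, was at -0.57 ± 0.27, and the second light-gated channel, trpl, was at -0.44 ± 0.39. Arr1, an arrestin that shuts off rhodopsin, was at -0.41 ± 0.31, and the scaffold inaD that holds the channel complex together was at -0.32 ± 0.30. rdgB, a phosphatidylinositol transfer protein, was at -0.10 ± 0.22, and Galphaq, the G protein alpha subunit that rhodopsin activates, was the exception at 0.30 ± 0.22. The markers' median was -0.27 after centring by position and -0.01 without the sign change, and the phototransduction median was -0.04 and -0.07. In whole heads, fewer cells of a type and less RNA per cell cannot be told apart.

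**Figure D4:**
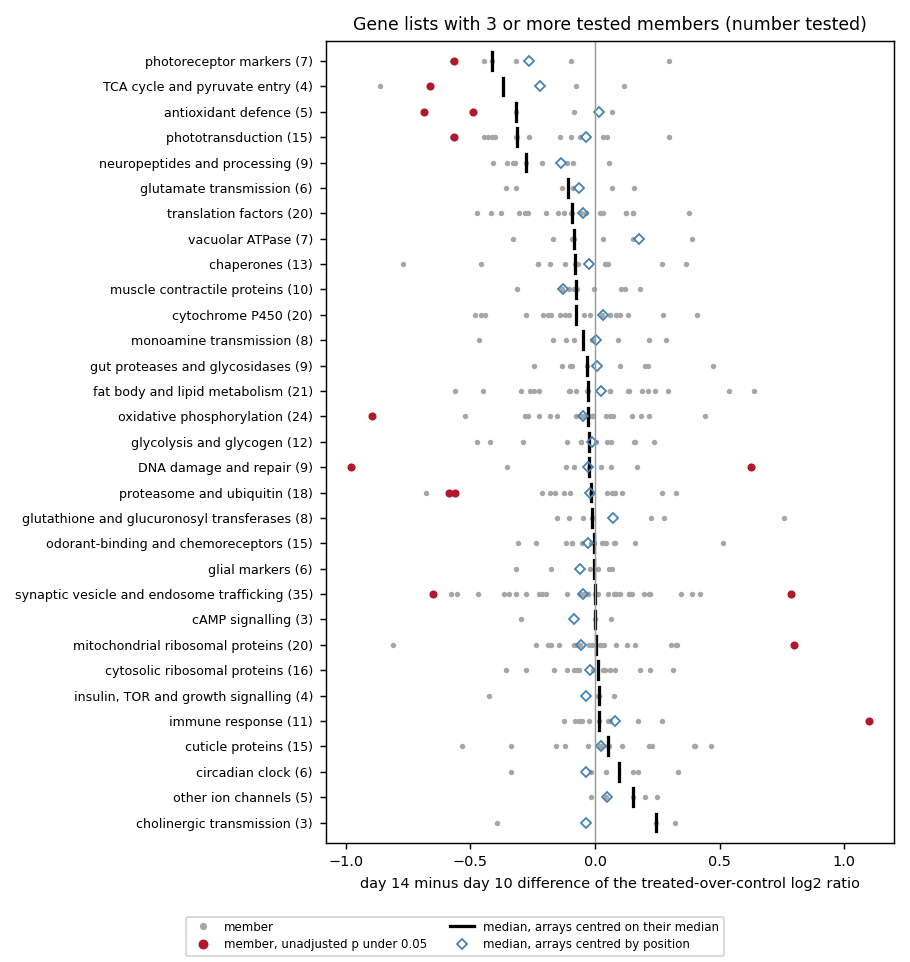
Day 14 minus day 10 difference (log2) of every measured member of the 31 gene lists with 3 or more tested members, ordered by median. Black bars are list medians with arrays centred on their median, and open diamonds are the medians after centring by position. The photoreceptor (-0.41), TCA cycle (-0.37), antioxidant (-0.32) and phototransduction (-0.31) medians are the lowest by the first. They lie nearer 0 by the second, which narrowed the differences of the named genes in general.

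The genes of the drugs' own targets were thinly measured. Gad1, the enzyme that makes GABA, was the only member of the GABA list with enough values. It was at 0.71, 0.71 and -0.16 in day 10 replicates 1, 2 and 4 and at -0.15, 0.27, -0.15 and 0.11 on day 14. The day 10 arrays spanned the whole day 14 range, and the difference was -0.40 ± 0.26 (95% interval -0.97 to 0.16). Gad1 was at -0.48 without the sign change, with an unadjusted limma p under 0.05 there. stj, the fly alpha2delta subunit of the gabapentin-binding family, was at 0.16, 0.19, 0.18 and 0.22 on day 10 and at 0.00, 0.20 and -0.10 in day 14 replicates 2 to 4. It differed by -0.16 ± 0.18 (95% interval -0.56 to 0.25), within the spread between arrays, and the 2 measured genes of the calcium channel list had a median of -0.03. The receptor subunits Rdl and Lcch3, the calcium channel cac and the clock gene per did not have 3 values on each day.

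Other lists of nerve function had no member with an unadjusted p under 0.05. The 9 neuropeptide and processing genes had 8 members below 0 and a median of -0.28, which was -0.14 after centring by position and 0.03 without the sign change. Their lowest member was the insulin-like peptide Ilp2 at -0.41 ± 0.26. The medians were -0.11 for 6 genes of glutamate transmission, -0.05 for 8 of monoamine transmission, 0.00 for 3 of cAMP signalling, 0.25 for 3 of cholinergic transmission (-0.04 by position) and 0.15 for 5 other ion channels. Examples with their standard errors were the choline transporter ChT at 0.32 ± 0.26, the nicotinic receptor subunit nAChRbeta1 at -0.39 ± 0.32 and the potassium channel Sh at -0.01 ± 0.19. Of 6 clock genes, with a median of 0.10, the blue-light receptor cry was lowest at -0.34 ± 0.21.

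Lists of markers of other cell types with at least 3 tested members gave medians close to 0. They were 0.00 for 6 glial markers, -0.03 for 9 gut proteases and glycosidases, -0.08 for 10 muscle proteins, -0.03 for 21 fat body and lipid genes and 0.05 for 15 cuticle proteins, with no member at an unadjusted p under 0.05 in any of them. Only 2 neuron, 2 hemocyte and 2 testis or accessory gland markers could be tested. The neuron pair had a median of -0.38, the hemocyte pair -0.19 and the testis pair 0.01. The neuron median was -0.15 after centring by position and 0.17 without the sign change. The lipoprotein apolpp of the fat body was at 0.54 ± 0.32, and the fatty acid synthesis enzyme ATPCL at -0.45 ± 0.22.

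Among genes that handle foreign compounds, none of 20 cytochromes P450 and none of 8 glutathione and glucuronosyl transferases had an unadjusted p under 0.05. The P450 median was -0.07, between Cyp4e2 at -0.48 ± 0.24 and Cyp6a19 at 0.41 ± 0.26. The transferase Ugt37E1 was at 0.76 ± 0.35, with day 10 values of -0.75, -1.55 and -0.02 that reached the day 14 range. For 16 cytosolic ribosomal proteins the median was 0.01, for 20 translation factors -0.09, for 12 genes of glycolysis and glycogen -0.03 and for 13 chaperones -0.08. It was -0.08 for 7 vacuolar ATPase subunits, -0.01 for 15 odorant-binding proteins and chemoreceptors, and 0.01 for 4 genes of insulin and growth signalling, of which none had an unadjusted p under 0.05. The glycogen phosphorylase Glyp (-0.47 ± 0.23), the mitochondrial chaperonin Hsp60C (-0.77 ± 0.35) and the initiation factor subunit eIF3a (0.38 ± 0.19) had the smallest p of their lists. RpL29 had no overlap between days, with -0.32, -0.19 and -0.16 on day 10 against 0.01, 0.07, 0.11 and 0.18 on day 14, yet differed by only 0.31 ± 0.18.

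Over all 36 lists, 361 of 825 listed genes could be tested, and 13 (3.6%) had an unadjusted p under 0.05, beside 2.4% of all members. Of these 13 genes 4 were higher on day 14 (Drs, mRpS34, p53 and Synj) and 9 lower (COX4, tefu, Prosbeta7, Prosbeta5, trp, Scsalpha1, Gclm, Prx3 and Sec22). In 21 of the 31 lists with at least 3 tested members there was none. The list medians lay below 0 in 23 and above 0 in 8. The count of 13 moved between 7 and 48 as single arrays were left out, and the highest count came from leaving out day 10 replicate 4. The lists were chosen with earlier results of these data known, and those results named Drs, mRpS34, tefu and COX4. The share of 3.6% beside 2.4% is therefore not an independent comparison.

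A small set of genes had ratios on the same side of 0 on both days. Unadjusted limma p-values under 0.05 on each day separately were found for 14 such genes of 2166 members, 13 below control and 1 above. These genes were named after their values were seen. cbc and Jwa also had such p-values on both days, but with day means on opposite sides of 0. The P450 Cyp313a1 was at -1.05, -0.31, -0.83 and -0.73 on day 10 and at -0.94, -0.92, -0.80 and -0.69 on day 14. It was below control on all 8 arrays and the day difference was -0.10, with a 95% interval of -0.53 to 0.32. Cyp28d1 was at -1.08, -0.31, -0.26 and -0.46 and then at -0.58, -0.22, -0.40 and -0.69, also below control on all 8 arrays, with a difference of 0.06 (-0.42 to 0.54). CG15098 was as even, from -0.59 to -0.15 on day 10 and from -0.52 to -0.33 on day 14, with a difference of 0.00 (-0.38 to 0.38). For these genes the intervals reached -0.53 and 0.54. Others of the set had wider ones, -0.51 to 0.95 for CG2233 and -0.77 to 0.59 for CG9689. Differences between the days within such intervals could have gone undetected.

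The set held other genes, and no function common to it was tested. Cyp9f2 had means of -0.34 and -0.55, and Cyt-b5-r, a cytochrome b5-related protein, had -0.51 and -0.59. The metabolic enzymes Miox, myo-inositol oxygenase, and ScsbetaA had day 10 means of -0.67 and -0.51 and day 14 means of -0.45 and -0.39. CG2233 was lowest on day 10, at -0.78, and was at -0.56 on day 14. CG4914, CG7966, CG9689, CG11400 and CG4572 had means between -0.61 and -0.34 on both days, and CG13898 alone lay above control, at 0.49 and 0.52. Of the 28 day means of these 14 genes, 18 changed sign without the sign change, Cyp313a1 on day 10 (0.05) and Cyp28d1 on day 14 (0.07) among them.

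Genes picked by 1 day were followed on the other, whose arrays and controls are separate. The pick itself was not fully separate, since the fit shared 1 estimate of the spread between the days. Members also needed enough values on both days. Of the 75 genes below control on day 10, 58 (77.3%) were below 0 on day 14, where 47.6% of all members were, and their day 14 median was -0.12 against a day 10 median of -0.48. Of the 59 above control on day 10, 34 (57.6%) were above 0 on day 14, beside 52.4% of all. In the other direction 44 of the 54 genes low on day 14 (81.5%) were below 0 on day 10, beside 45.6% of all, and 20 of the 28 high genes (71.4%) were above 0, beside 54.4%. After centring by position the shares were smaller for the low genes, 64% against 49.4% for those low on day 10 and 63% against 48.5% for those low on day 14. For the high genes they were then 64.8% against 50.5% for those high on day 10 and 58.7% against 51.5% for those high on day 14. Without the sign change 139 of 196 genes low on day 10 (70.9%) were below 0 on day 14, beside 52.1% of all. Of those low on day 14 in that reading, 83.8% were below 0 on day 10, beside 52.4%. For the genes high on day 10 or on day 14 in that reading, the shares above 0 were 59.8% beside 47.9% and 69.4% beside 47.6%.

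On single day 14 arrays the 75 genes had medians of -0.28, -0.05, -0.21 and -0.11 in replicates 1 to 4. The shares below 0 were 75%, 62%, 77% and 69.4%, against 51.6%, 54.1%, 46.5% and 48.6% of all members with a value. The share was above that of all members on each of the 4 arrays, in both dye orientations, and replicate 2 was nearest to it. The genes share arrays, so no p is given.

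**Figure D5:**
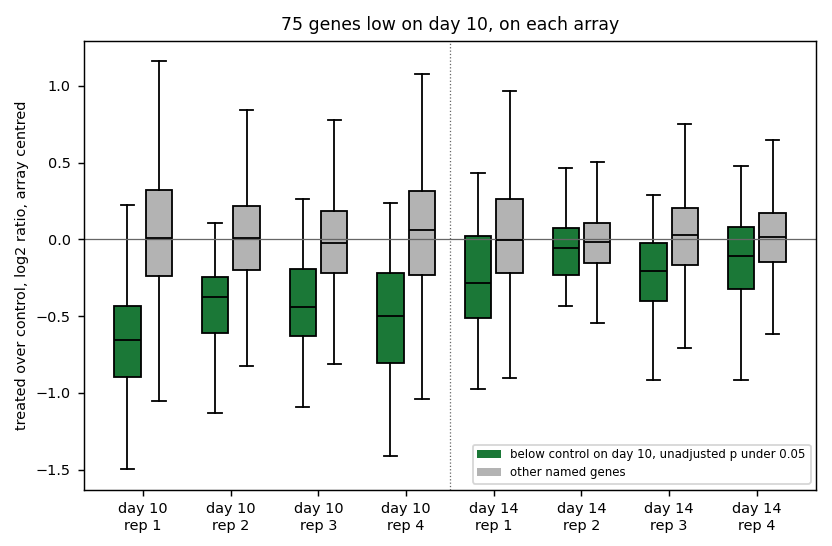
Box plots (median, quartiles and whiskers, outlying genes not drawn) of the array-centred log2 ratio on each of the 8 arrays for 75 genes below control on day 10 and for the other named genes. The green boxes were chosen on day 10; on the day 14 arrays their medians run from -0.28 to -0.05, below those of the grey boxes.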

How the data were processed

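Values were the authors' log2 ratios of 2 channels from spotted cDNA arrays. Per the labels, GenePix read the scans, Acuity normalized the ratios of an array, and a spot that was dim, saturated or badly shaped was dropped and is blank in the table. Base 2 follows from the deposited extremes of -9.966 (log2 of 0.001) and 16.61. Slide and scan date were not in the table, so no batch could be tested, and depth means the number of values per array. Of 27648 features, 15116 had exactly 1 gene symbol in the platform annotation, 102 several and 12430 none; 14894 of the first were matched to RefSeq gene identifiers and 222 kept the annotation's symbol.

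Swapped arrays had their sign turned, each array was centred on its median, and features of a gene were averaged. A linear model with 1 mean per day (limma 3.58.1, R 4.3.3, moderated test) used the 8 arrays together, on genes and features with at least 3 of 4 values on each day, with Benjamini-Hochberg adjustment and a threshold of 0.05. Errors are its standard errors. The replicates are biological per the labels, and 4 arrays per day limit the precision. Centring by position subtracted medians of runs of 576 and then 24 features in table order.

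The comparison, the 36 gene lists and the named genes were chosen with earlier results of these data known. Named were the 12 genes per direction with the smallest p, the member of each list with at least 3 tested genes that had the smallest p in each direction, and 12 genes fixed by name, of which 8 could be tested. Alternatives left the sign unturned, changed the centring, scaling, filter, weights, dye or block terms, used features alone, each dye orientation alone or an exact permutation test, and dropped single arrays. Unturned arrays combined with centring by position, or without day 10 replicate 4, were added after seeing the data. The fit was tested on simulated data.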

Additional observations from a re-analysis of the deposited data

Results flagged for a closer look

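In 4 of 112 groups of 4 values of a named gene (3.57%), 1 array stood far from the other 3 by Dixon's test, where chance gives about 1 in 20. They were day 14 replicate 2 of CG7065 at -0.21, day 14 replicate 4 of CG1703 at 0.080, day 14 replicate 2 of GluRIIA, a glutamate receptor subunit, at -0.32, and day 10 replicate 4 of Sec22 at 1.31. Without the array in question the day differences of CG7065, CG1703 and Sec22 stayed below 0.

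In 5 named genes every measured array of day 10 lay on one side of 0 and every array of day 14 on the other, and the opposition itself was not tested beyond the day difference. cbc (0.64), CG14330 (0.69) and RpL29 (0.31) were below control on day 10 and above it on day 14. Prosbeta7 (-0.59) and Sec22 (-0.65) ran the other way. Over all members 16 genes (0.739%) showed such an opposition, while 77 (3.55%) had every array of both days on the same side.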

How the results depend on the processing

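No gene or feature had an adjusted p under 0.05 under any alternative. The exact permutation test could hardly give one, since its smallest p was 0.0286 and most of its 898 genes would have to reach it. The lowest adjusted p of a gene named by value was 0.201. The count of named genes at an unadjusted p under 0.05 (52; 28 higher and 24 lower) moved more. It was 157 (93 higher) with the Cy3 arrays alone, 152 (60 higher) with the Cy5 arrays alone, 297 (174 lower) with array weights, 82 (54 higher) centred by position, 133 (61 higher) for features alone, 106 (61 higher) with values on 2 of 4 arrays and 31 (7 higher) with all 4. It was 201 with the swapped arrays not turned, 133 when these were also centred by position, 193 when they were used without day 10 replicate 4, and 16 (4 higher) by the exact permutation test. Leaving out single arrays gave 29 (without day 14 replicate 4) to 239 (without day 10 replicate 4), and 30 without day 14 replicate 3. Under the other alternatives the total stayed within 1.5 times of 52, with 28 higher and 45 lower genes with arrays scaled, 38 and 39 with a dye term, and 44 and 1 not centred. The count of 13 list members became 31 with the Cy3 arrays alone, 31 with the Cy5 arrays alone, 56 with array weights, 25 with arrays scaled, 36 for features alone, 24 with values on 2 of 4 arrays, 8 not centred, 6 by the exact test, 34 not turned, 26 not turned and centred by position, 37 not turned without day 10 replicate 4, and 7 to 48 over single arrays left out. The correlation between dye orientations was -0.092 centred by position, 0.20 without turning, and -0.28 to 0.051 over single arrays left out.

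Deviations of same-numbered arrays correlated at -0.026, 0.29, 0.15 and 0.13, over 0.1 in 3 of 4 pairs but not in all, so the samples were treated as sharing only a number. Day 10 replicates 2 and 3 correlated best with their own number, replicate 1 with day 14 replicate 2 (0.20) and replicate 4 with day 14 replicate 3 (0.24). With the replicate block 29 genes were higher and 37 lower. Signs turned with the block for ITP -0.032, Prx6c -0.030 and Myd88 0.026.

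Of the 24 genes with the smallest p, 13 changed sign without the sign change and none under another setting. Day differences that changed sign there were WRNexo -0.035, CG9512 -0.038, p53 -0.13, hebe -0.040, CG16898 -0.20, CG31793 -0.44, COX4 0.12, CG7065 0.33, Prosbeta7 0.077, Men-b 0.17, trp 0.16, Scsalpha1 0.13, Gclm 0.030, ClC-c -0.23, Sh 0.080, ChT -0.17, DopEcR -0.068, Pde6 -0.082, Sec22 0.094, cry 0.16, Galphaq -0.20, Cyp6a19 -0.088, RpL29 -0.062, RpS28b 0.32, eIF3a -0.19, Glyp 0.27, apolpp -0.18, Sgt1 -0.39, Hsp60C 0.47, Gbp2 0.95, CG13933 0.30, Arr1 0.22, rdgB 0.22, Prx3 0.068 and Prosbeta5 0.11. Day means that did so were CG11400 (day 14) 0.0025, CG13898 (day 10) -0.55, CG13898 (day 14) -0.19, CG2233 (day 10) 0.31, CG2233 (day 14) 0.62, CG4572 (day 10) 0.30, CG4914 (day 10) 0.21, CG4914 (day 14) 0.30, CG7966 (day 14) 0.17, Cyp28d1 (day 14) 0.073, Cyp313a1 (day 10) 0.049, Cyp9f2 (day 14) 0.34, Cyt-b5-r (day 10) 0.0037, Cyt-b5-r (day 14) 0.39, Miox (day 10) 0.40, Miox (day 14) 0.34, ScsbetaA (day 10) 0.058 and ScsbetaA (day 14) 0.17. With the Cy3 arrays alone the sign changed for nAChRbeta1 0.32, GluRIIA -0.041, speck 0.37, Pka-R1 0.024, ITP -0.094, jet -0.081, Ser6 -0.20, Ugt37E1 -0.019, GstT4 0.23, Prx6c -0.40, COX6AL -0.24, mRpL54 0.61, ScsbetaA -0.28, TpnC73F -0.41, Act88F 0.051, Myd88 0.20, Cpr47Eb 0.69, Ir76a 0.27, Vha100-4 -0.28, foxo -0.0018 and Gad1 0.14. With the Cy5 arrays alone the sign changed for Sh 0.065, Sgt1 -0.14, Gbp2 0.46, rdgB 0.21, CG13898 (day 10) -0.087 and CG2233 (day 14) 0.052. Centred by position the sign changed for GluRIIA -0.077, Gdh 0.18, DopEcR -0.089, speck 0.033, Pde6 -0.23, jet -0.033, Gs2 -0.19, Ir76a 0.11, Sgt1 -0.16, Vha55 0.082, foxo -0.030, rdgB 0.079 and CG11400 (day 14) 0.065. Not centred, the sign changed for Sh 0.27, Ilp2 0.033, Npc2a 0.033, GstT4 0.13, Myd88 0.063, Ir76a 0.13, stj 0.030, inaD 0.026 and rdgB 0.091. With array weights the sign changed for Sh 0.11, Gs2 -0.16, Prx6c -0.068 and ScsbetaA -0.21. With arrays scaled the sign changed for Sh 0.0011, Gs2 -0.011 and ScsbetaA -0.057. Leaving out single arrays turned the sign of small differences, with ranges of Sh -0.11 to 0.065, nAChRbeta1 -0.78 to 0.024, GluRIIA -0.16 to 0.33, Pde6 -0.016 to 0.21, ITP -0.037 to 0.16, Gs2 -0.031 to 0.20, GstT4 -0.28 to 0.0045, Prx6c -0.15 to 0.20, ScsbetaA -0.054 to 0.34, TpnC73F -0.085 to 0.34, Myd88 -0.31 to 0.026 and foxo -0.019 to 0.17. The causes were not tested. Only 4 arrays per day, and blanks that were more frequent on day 14, limit what could be measured.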
